A study of Mus musculus with 9 samples.

Results

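The libraries described here are the doxorubicin-exposed ones: 6 of the 9 RNA-seq libraries of the series, set against the 3 control libraries over all genes. They were chosen by their labelled treatment alone, 3 having received doxorubicin + ADU-S100 (called the combination here) and 3 doxorubicin by itself. The question was which genes were higher or lower in tumor leukocytes of doxorubicin-treated mice whether or not a STING agonist was added. The RNA came from CD45+ cells, the leukocytes, that were taken by magnetic sorting from WEHI-164 fibrosarcoma tumors grown under the skin of BALB/c mice, with 3 biological replicates per group. Doxorubicin was injected into the tumor weekly at 5 mg/kg, ADU-S100 was injected at 25 µg on 2 days of each week, and tumors were harvested 7 days after treatment. Whether each library was 1 mouse is not stated in the sources used here, so the p-values measure the spread between these libraries. No library of ADU-S100 alone was analysed here, so its own effect cannot be told apart from that of the combination. All groups share the mouse strain, the transplanted tumor line and the sort.

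Doxorubicin is an anthracycline that slips between DNA base pairs and traps topoisomerase II on cut DNA, and ADU-S100 is a synthetic cyclic dinucleotide that activates STING, the sensor of cyclic dinucleotides upstream of type I interferon. MHC class I molecules, a heavy chain with β2-microglobulin and a peptide, show fragments of a cell's own proteins to CD8+ T cells, and nearly every leukocyte carries them. Interferons raise the transcription of the heavy chains and of the machinery that cuts and loads their peptides.

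No gene passed the adjusted threshold in the pooled comparison, the mean of both treated groups against control. Of 16373 genes tested with edgeR's quasi-likelihood test, 0 (0%) had a Benjamini-Hochberg adjusted p under 0.05, the smallest being 0.999, while 325 genes (1.98%) had an unadjusted p under 0.05. On the same libraries DESeq2 gave 456 genes at an unadjusted p under 0.05 and 3 at an adjusted p under 0.05, and limma-voom gave 1293 and 0. The 3 genes that DESeq2 called were H2-D1, Deptor and Gm8810, the last annotated as a pseudogene within the MHC class I region of chromosome 17, where reads of near-identical copies may be split among them. Gm8810 was at 79.97, 105 and 107 CPM in the combination libraries, 86.2, 0 and 68.6 CPM in the doxorubicin libraries and 0, 0 and 0 CPM in the control libraries. Doxorubicin library 2 was at 0 like the controls, so the groups overlapped. A gene at 0 in all controls passed the filter on low counts through the exposed libraries alone, and the unadjusted p of Gm8810 was 0.410 with limma-voom. The biological coefficient of variation over all genes was 0.457. All further p-values of single genes are unadjusted edgeR values unless DESeq2 is named, and every adjusted p of the pooled comparison was at least 0.999.

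At an unadjusted p under 0.05, 184 genes (1.12%) were higher and 141 (0.861%) lower in the doxorubicin-exposed libraries. The cutoffs of the study, more than a 2-fold change and a p under 0.05 before adjustment, held for 79 genes higher (0.483%) and 45 lower (0.275%). A stricter reading asks for the shift in each treated group by itself. Of all genes, 39 (0.238%) were higher and 9 (0.055%) lower at an unadjusted p under 0.05 in the combination and also in doxorubicin alone, a pair of comparisons that share the 3 control libraries. In 72 genes (0.44%) every one of the 6 exposed libraries lay above every control, and in 97 (0.592%) every one lay below. Both conditions together with a fold above 2 left 11 genes higher (0.0672%) and 2 lower (0.0122%). The 11 were Vwa1, Ubd, Myct1, Gm12589, Bmp4, Dapk2, Syt17, Shank1, Lrrc14b, 9130230L23Rik and Gm12216, of which 4, the first in the list, averaged 1 CPM or more, CPM being counts scaled to the size of the library. The 2 lower ones were Tal1 and Epb41l3, of which Tal1 averaged 1 CPM or more. These counts leaned on single libraries: the 79 became 215 without control library 1, 185 without control library 2, 126 without doxorubicin library 1 and 184 without combination library 3, and the 45 became 68 without control library 2, 103 without doxorubicin library 1, 107 without combination library 2 and 87 without combination library 3. The 11 became 90 without control library 1, 46 without control library 2, 20 without doxorubicin library 1, 17 without doxorubicin library 2, 3 without doxorubicin library 3, 19 without combination library 1 and 7 without combination library 2.

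Library totals ran between 53173754 and 69456603 counts in the combination, 50110494 and 56405228 in doxorubicin alone and 52909751 and 61352118 in control. Ptprc, which encodes CD45 itself, had 361, 627 and 189 CPM in the combination libraries, 383, 359.6 and 409 CPM in the doxorubicin libraries and 551, 303 and 376 CPM in the control libraries, so the sorted antigen was measured in all 9 libraries and the groups overlapped. The exposed libraries averaged 388 ± 141 CPM of Ptprc and the controls 410 ± 128 CPM (SD, n = 6 and 3; exact two-sided permutation test, p = 0.833, the smallest p of the 84 splits being 0.0238). Mitochondrially encoded RNA made up 13.1%, 3.49% and 1.97% of counts in the combination libraries, 6.93%, 1.26% and 2.05% in the doxorubicin libraries and 2.28%, 7.62% and 4.37% in the control libraries. Combination library 1 was thus the highest (exposed against control, exact two-sided permutation test, p = 0.881). Stromal markers varied within each group. The mean log2 CPM of 25 fibroblast and sarcoma genes was 2.18, 2.52 and 5.38 in the combination, 4.06, 2.05 and 3.95 in doxorubicin alone and 1.97, 4.94 and 2.57 in control, each group holding libraries at both ends of the range. Of the 25 genes 0 passed an unadjusted p under 0.05 in the pooled comparison. These are bulk samples, in which fewer cells of a type and less RNA per cell cannot be told apart.

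The shifts also went with transcript length and base composition. Genes higher at an unadjusted p under 0.05 had a median spliced length of 2050 bases and 53.3% GC, those lower 4813 bases and 46.8% GC, and all genes tested 3058 bases and 49.7% GC. Among 2215 genes of 1000 to 2500 bases with 50% to 60% GC the median log2 fold change was 0.17 and 77.0% were positive, and among 1719 genes of at least 4000 bases with under 45% GC it was -0.15 and 26.5% were positive. Over all genes the median was 0.03 and 54.3% were positive. The difference in median deviation from the gene means between the short GC-rich and the long AT-rich genes was 0.46, -0.12 and 0.09 log2 units in the combination libraries, -0.26, 0.35 and 0.09 in the doxorubicin libraries and -0.45, -0.33 and 0.12 in the control libraries. Counts of the main gene groups are therefore given again after each library's smooth trend on length and GC was taken out, a correction chosen after seeing the data.

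H2-K1 and H2-D1, which encode classical heavy chains of MHC class I, were higher in the sorted libraries of both treated groups, by a pooled fold of 1.71 for H2-K1 and 1.66 for H2-D1. H2-K1 (gene ID 14972, GRCm38 chromosome 17, 33996012 to 34000619) had 989, 1092 and 1229 CPM in the combination libraries, 853, 921 and 677 CPM in the doxorubicin libraries and 623, 565 and 474 CPM in the control libraries. All 6 exposed libraries lay above all 3 controls, and the pooled log2 fold change was 0.78 ± 0.19 (SE; unadjusted p = 0.00274). H2-D1 (gene ID 14964, chromosome 17, 35263094 to 35267497) had 2969, 3898 and 3977 CPM in the combination libraries, 2871, 3181 and 2521 CPM in the doxorubicin libraries and 1996, 1967 and 1829 CPM in the control libraries. Again the groups did not overlap, with a log2 fold change of 0.74 ± 0.20 (SE; unadjusted p = 0.00556) and a DESeq2 adjusted p of 0.0366. For H2-K1 the shift was 0.99 in the combination and 0.56 with doxorubicin alone (unadjusted p of the difference = 0.0727), and for H2-D1 0.90 in the combination and 0.57 with doxorubicin alone (unadjusted p = 0.171). The combination had the higher mean for both genes, and neither difference from doxorubicin alone passed the unadjusted threshold. The part of carried-over sarcoma or stromal cells in these class I values was not tested.

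**Figure D1:**
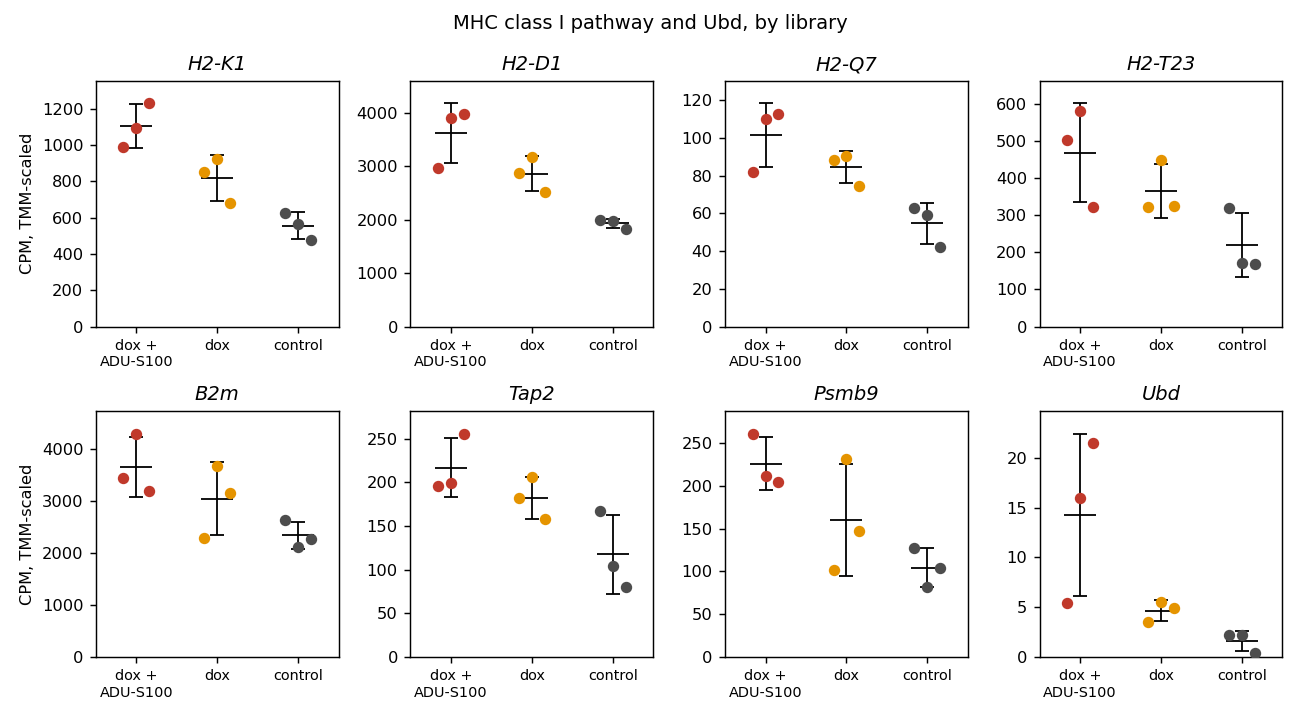
TMM-scaled CPM (linear axis from 0) of 7 class I pathway genes and Ubd in each library, with the combination, doxorubicin and control from left to right, points for libraries and bars for mean ± SD (n = 3 each). For H2-K1, H2-D1, H2-Q7 and Ubd every exposed library lay above every control, while doxorubicin library 1 overlapped the controls for B2m and Psmb9.

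The reference promoters of these genes are shown because they carry the elements through which interferon and NF-κB act on class I transcription. The sequences are RefSeq's, from GRCm38.p6, the C57BL/6 strain, whose class I alleles differ from those of BALB/c. Each reads 5′ to 3′ toward the gene, and the capitals mark, in order, the κB motif GGGATTCCC, the class I form GAAGTGAAA of the interferon element and the CCAAT box, each searched on both strands. In B2m the first capitals are the general interferon element GAAANNGAA. No marked run overlaps another. The H2-K1 window is chr17:34000348-34000472 on the minus strand, ending at the last base before a RefSeq transcript start that lies inside the gene span given above, and that of H2-D1 chr17:35262909-35263058 on the plus strand, 185 to 36 bases before the start. The H2-Q7 window is chr17:35439008-35439154 on the plus strand, 147 to 1 bases before the start, and that of B2m chr2:122147533-122147682 on the plus strand, 154 to 5 bases before the start.
H2-K1: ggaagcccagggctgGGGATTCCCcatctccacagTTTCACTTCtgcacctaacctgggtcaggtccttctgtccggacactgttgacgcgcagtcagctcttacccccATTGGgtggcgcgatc
H2-D1: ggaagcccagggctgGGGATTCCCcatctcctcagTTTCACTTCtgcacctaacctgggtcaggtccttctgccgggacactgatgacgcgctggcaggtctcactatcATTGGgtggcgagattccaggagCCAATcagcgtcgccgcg
H2-Q7: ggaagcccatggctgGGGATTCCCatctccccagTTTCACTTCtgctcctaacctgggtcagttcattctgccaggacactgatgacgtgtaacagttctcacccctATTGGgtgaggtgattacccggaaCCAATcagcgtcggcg
B2m: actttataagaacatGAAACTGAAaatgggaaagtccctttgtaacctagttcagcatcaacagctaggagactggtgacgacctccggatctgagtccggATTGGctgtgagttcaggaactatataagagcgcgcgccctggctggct
The 3 heavy chain genes held the κB motif as written and the interferon element on the other strand, as TTTCACTTC, and ATTGG is the CCAAT box on the other strand. Among 32851 mouse promoters of 300 bases, 0.353% held GGGATTCCC, 0.505% GAAGTGAAA, 8.56% GAAANNGAA and 37.4% CCAAT. Counted by gene, as the list is below, the shares of 27025 genes were 0.414%, 0.596%, 9.76% and 41.1%. Of the 21 class I list genes 19 had a promoter in the table, and 4 of them held GGGATTCCC (H2-K1, H2-D1, H2-Q6 and H2-Q7), 6 held GAAGTGAAA (the same genes with H2-M3 and H2-Q4), 5 held GAAANNGAA and 14 held CCAAT. A match of letters is a description and does not show that a factor was bound.

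All 21 measured genes of the class I list had a positive pooled log2 fold change, with a median of 0.68 against 0.03 over all genes, and 15 were higher at an unadjusted p under 0.05 (1.12% of all genes were). Of the 21, 5 were higher in both treated groups by themselves (H2-K1, H2-D1, H2-Q7, H2-T22 and Tap2, against 0.238% of all genes) and 6 had all exposed libraries above all controls (0.44%). None reached a fold above 2. The median was 0.89 in the combination and 0.45 with doxorubicin alone, and against control 16 of 21 were higher at an unadjusted p under 0.05 in the combination (2.83% of all genes were) and 5 with doxorubicin alone (0.513%). The mean log2 CPM of the 21 genes was 8.53, 8.65 and 8.495 in the combination libraries, 8.08, 8.49 and 8.10 in the doxorubicin libraries and 8.10, 7.69 and 7.58 in the control libraries, so that 5 of 6 exposed libraries lay above the highest control, doxorubicin library 1 being the exception. Doxorubicin library 3, at 8.097, was nearly level with the highest control, at 8.096.

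Other genes of the heavy chain family were higher too. H2-Q7, a Qa-2 gene, had 81.97, 109.9 and 112 CPM in the combination libraries, 88.1, 90.4 and 74.7 CPM in the doxorubicin libraries and 62.8, 58.9 and 42.4 CPM in the control libraries, without overlap and with a log2 fold change of 0.76 ± 0.18 (SE; unadjusted p = 0.00250). Its near copy H2-Q6 was at 0.78 (unadjusted p = 0.0159), H2-T22 at 0.80 (unadjusted p = 0.00200), H2-T10 at 0.82 (unadjusted p = 0.00142), H2-Q1 at 0.72 (unadjusted p = 0.00496), H2-K2 at 0.64 (unadjusted p = 0.00437) and H2-Q4 at 0.68 (unadjusted p = 0.0268). H2-T23, which encodes the Qa-1 molecule read by NK cell receptors, had 321 to 579.9 CPM (median 387) in the 6 doxorubicin-exposed libraries and 169.5 to 319 CPM in the 3 controls, with a log2 fold change of 0.91 (unadjusted p = 0.0120). H2-M3, which presents formylated peptides, was at 0.35 (unadjusted p = 0.0195). H2-T10 and H2-K2 are annotated as transcribed pseudogenes. Gm10499, a predicted protein-coding gene of the same chromosome, had 81.7, 135 and 139.8 CPM in the combination libraries, 98.3, 97.6 and 97.8 CPM in the doxorubicin libraries and 72.6, 58.2 and 46.2 CPM in the control libraries, without overlap and at 0.87 (unadjusted p = 0.00299). These genes are close copies of one another, the counts come from reads placed on C57BL/6 alleles, and how reads were split among them is uncertain.

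The light chain and the genes that cut and load peptides had positive log2 fold changes with more overlap between groups. B2m, the light chain, had 3445, 4294 and 3194 CPM in the combination libraries, 2282, 3672 and 3155 CPM in the doxorubicin libraries and 2629, 2106 and 2265 CPM in the control libraries, with a log2 fold change of 0.51 ± 0.23 (SE; unadjusted p = 0.0544). Doxorubicin library 1 lay within the range of the controls, and the other exposed libraries lay above it. The peptide transporter genes Tap1 and Tap2 were at 0.77 (unadjusted p = 0.0243) and 0.76 (unadjusted p = 0.0125), Tapbp (tapasin, which tethers the transporter to class I) at 0.58 (unadjusted p = 0.0245). Of the immunoproteasome subunits, which swap into the proteasome under interferon, Psmb9 was at 0.87 (unadjusted p = 0.0109), Psmb10 at 0.66 (unadjusted p = 0.0488) and Psmb8 at 0.62 (unadjusted p = 0.127). The proteasome activator genes Psme1 and Psme2 were at 0.59 (unadjusted p = 0.0432) and 0.71 (unadjusted p = 0.0396). The 6 members that did not pass were B2m, Psmb8, the class I transactivator gene Nlrc5 at 0.40 (unadjusted p = 0.261), and 3 genes of the endoplasmic reticulum that serve other proteins too or trim peptides, Erap1 at 0.04 (unadjusted p = 0.867), Calr at 0.12 (unadjusted p = 0.590) and Pdia3 at 0.01 (unadjusted p = 0.943).

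The count of 15 class I genes became 6 without control library 2 and 7 without control library 3, and it lay within 1.5 times of 15 without each of the other libraries. H2-K1, H2-D1, H2-Q7, H2-T22, H2-T10, H2-Q1 and H2-K2 passed an unadjusted p under 0.05 whichever library was left out. Among the other heavy chains, the call was lost for H2-T23 without control libraries 2 or 3 (0.76 and 0.77), H2-M3 without control libraries 2 or 3 (0.34 and 0.31), H2-Q6 without control library 3 (0.54) and H2-Q4 without control library 3 or doxorubicin library 1 (0.49 and 0.61). Among the peptide machinery it was lost for Tap1 without control libraries 2 or 3 (0.64 and 0.53), Tap2 without control library 2 (0.68), Tapbp without control libraries 2 or 3 (0.53 and 0.44), Psmb9 without control library 2 (0.72), Psmb10 without control libraries 1, 2 or 3, doxorubicin library 2 or combination libraries 1 or 2 (0.43 to 0.78), Psme1 without control libraries 1 or 2, doxorubicin libraries 2 or 3 or combination libraries 1 or 2 (0.45 to 0.63) and Psme2 without control libraries 1, 2 or 3, doxorubicin libraries 2 or 3 or combination libraries 1 or 2 (0.52 to 0.76). With the length and GC trend taken out, the median of the list was 0.55, 8 of 21 genes were higher at an unadjusted p under 0.05 with 117 of all genes, 1 was higher in both groups and 1 kept the groups apart. H2-K1 was then at 0.60 (unadjusted p = 0.0174) and H2-D1 at 0.58 (unadjusted p = 0.0183). How much of the shift belongs to length and GC was not tested.

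**Figure D2:**
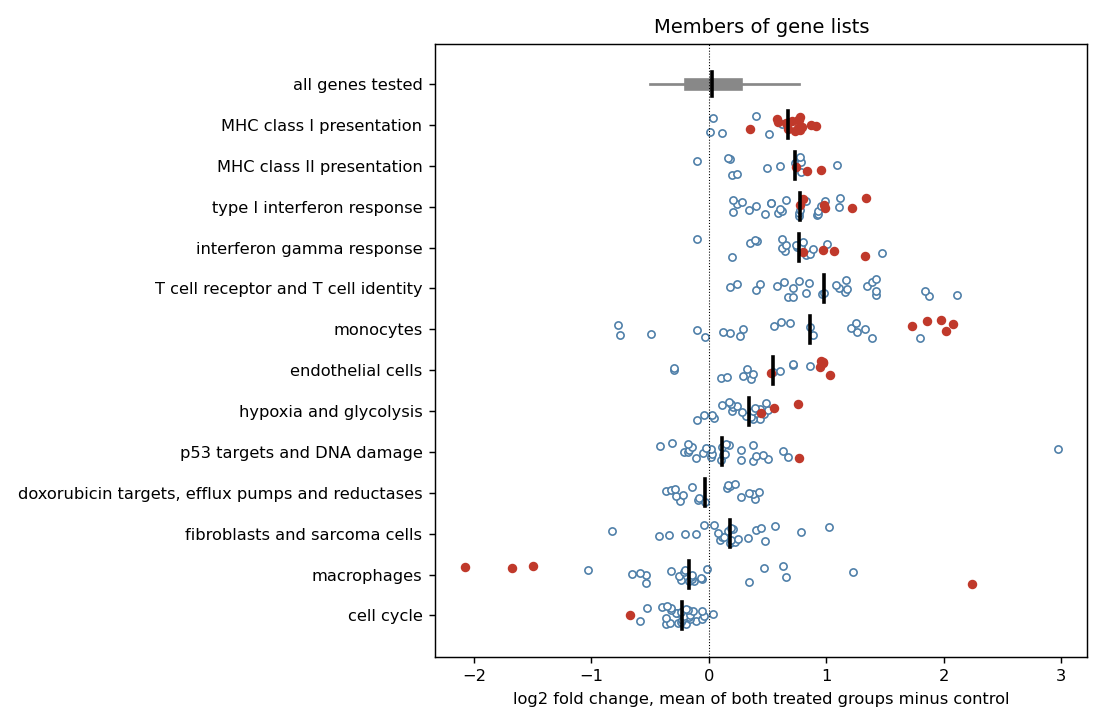
Pooled log2 fold change of every measured member of the gene lists, with 1 point per gene, filled where the unadjusted p was under 0.05, a bar for each list's median, and for all 16373 genes a box from the 25 to the 75 percentile with lines from the 5 to the 95 percentile. The 21 class I genes have a median of 0.68 and 15 filled points, while the 27 T cell genes have a median of 0.98 and no filled point.

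MHC class II genes, which dendritic cells, macrophages and B cells use to present to CD4+ T cells, were higher in 14 of 15 by sign with a median log2 fold change of 0.73, and 3 passed an unadjusted p under 0.05 (1.12% of all genes were higher). These were H2-Eb1 at 0.95 (unadjusted p = 0.0252), H2-Ab1 at 0.84 (unadjusted p = 0.0403) and H2-DMb1, part of the molecule that edits class II peptides, at 0.74 (unadjusted p = 0.0388). The invariant chain Cd74 had 2763, 5402 and 3509.6 CPM in the combination libraries, 2313, 4676 and 3418 CPM in the doxorubicin libraries and 3105, 1622 and 1685 CPM in the control libraries, at 0.78 (unadjusted p = 0.0543). Combination library 1 and doxorubicin library 1 lay below control library 1 for Cd74, and the exposed and control libraries were not apart for any of the 15. The count of 3 became 0 without control libraries 2 or 3, 1 without doxorubicin libraries 2 or 3 or combination library 2, 6 without doxorubicin library 1 or combination libraries 1 or 3 and 8 without control library 1, and 0 of 15 passed with the length and GC trend taken out. The call was lost for H2-Eb1 without control libraries 2 or 3 (0.85 and 0.77), H2-Ab1 without control libraries 2 or 3, doxorubicin libraries 2 or 3 or combination library 2 (0.59 to 0.84) and H2-DMb1 without control libraries 2 or 3, doxorubicin libraries 2 or 3 or combination library 2 (0.57 to 0.74).

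Interferon response genes were higher by sign in both treated groups, with the larger values in the combination and with overlap between exposed and control libraries. All 30 type I interferon response genes had a positive pooled log2 fold change (median 0.77) and 6 passed an unadjusted p under 0.05, yet the median was 1.20 in the combination and 0.32 with doxorubicin alone, 19 of 30 passed in the combination against control and 0 with doxorubicin alone, and 6 differed between the treated groups. Over all genes 1.12% were higher in the pooled comparison. Against control, 464 (2.83%) were higher and 263 (1.61%) lower in the combination, and 84 (0.513%) were higher and 32 (0.195%) lower with doxorubicin alone. Of 22 interferon gamma response genes 21 were positive (median 0.77), 4 passed, 10 passed in the combination and 0 with doxorubicin alone. Across all genes, 322 (1.97%) were higher and 129 (0.788%) lower in the combination than in doxorubicin alone at an unadjusted p under 0.05. The 6 type I genes became 2 without control library 2, 3 without control library 3, doxorubicin library 3 or combination library 1 and 22 without combination library 3, and 3 with the length and GC trend taken out. The 4 interferon gamma genes became 2 without control library 3, 7 without combination library 3 and 20 without control library 1, and stayed at 4 with that trend taken out. Type I list means were 7.15, 7.04 and 5.46 log2 CPM in the combination and 5.52, 5.81 and 6.22 in doxorubicin alone. In control they were 5.98, 5.45 and 5.22, and 3 of 6 exposed libraries lay above all controls. Interferon gamma list means were 6.90, 7.26 and 6.58 in the combination and 5.98, 6.70 and 6.28 in doxorubicin alone. In control they were 6.76, 5.44 and 4.92, and 2 of 6 exposed libraries lay above all controls.

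Bst2, the tethering factor that holds budding virus on the cell, had 240.0, 246 and 236 CPM in the combination libraries, 105, 172 and 143 CPM in the doxorubicin libraries and 105, 105 and 111 CPM in the control libraries, a log2 fold change of 0.78 ± 0.18 (SE; unadjusted p = 0.00160) (1.17 for the combination and 0.39 for doxorubicin alone; unadjusted p of their difference = 0.00323). All combination libraries lay above all controls, while doxorubicin library 1 overlapped them. Irf1, the transcription factor that acts on class I promoters, was at 0.97 (unadjusted p = 0.00634), Usp18, which removes ISG15 from proteins, at 0.99 (unadjusted p = 0.0105), Isg15 at 1.34 (unadjusted p = 0.0290) and Socs1, a feedback inhibitor of JAK signaling, at 1.33 (unadjusted p = 0.0102). The immunity-related GTPases Igtp and Irgm1 were at 1.07 (unadjusted p = 0.0199) and 0.80 (unadjusted p = 0.0224), Xaf1 at 0.80 (unadjusted p = 0.0161) and Irf7 at 1.22 (unadjusted p = 0.0442). With doxorubicin alone the log2 fold changes were 0.25 for Irf1, 0.65 for Usp18, 0.55 for Isg15 and 0.77 for Socs1. The pooled calls of Bst2, Irf1, Usp18 and Socs1 held whichever library was left out. The unadjusted p no longer passed for Xaf1 without control library 2 (0.72), Igtp without control libraries 2 or 3 (0.88 and 0.74), Irgm1 without control libraries 2 or 3 (0.69 and 0.53), Isg15 without control libraries 1, 2 or 3, doxorubicin library 3 or combination library 1 (1.06 to 1.43) and Irf7 without control libraries 1, 2 or 3, doxorubicin libraries 2 or 3 or combination libraries 1 or 2 (0.97 to 1.35).

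Ubd, an interferon-inducible gene, was higher in both treated groups. It encodes FAT10, a ubiquitin-like protein that sends its targets to the proteasome and is made by mature dendritic cells and other cells under interferon gamma and TNF. It had 5.45, 15.96 and 21.5 CPM in the combination libraries, 3.47, 5.55 and 4.89 CPM in the doxorubicin libraries and 2.23, 2.14 and 0.407 CPM in the control libraries. Every exposed library lay above every control, and the log2 fold change was 2.35 ± 0.62 (SE; unadjusted p = 0.00437) (3.16 for the combination and 1.54 for doxorubicin alone; unadjusted p of their difference = 0.0339). Ifnb1, which encodes interferon β, was near the limit of measurement at 0.291 to 1.64 CPM (median 0.551) in the 6 doxorubicin-exposed libraries and 0.222 to 0.284 CPM in the 3 controls, the groups did not overlap, and the log2 fold change was 1.41 (unadjusted p = 0.0408). A p under 0.05 was lost for Ifnb1 without control libraries 1, 2 or 3, doxorubicin libraries 1 or 3 or combination library 2 (1.01 to 1.53). The STING gene itself, Tmem173, averaged 215 ± 77.8 CPM in the combination, 237 ± 115 CPM in doxorubicin alone and 219.9 ± 69.97 CPM in control (SD, n = 3 each), at 0.03 (unadjusted p = 0.921).

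Monocyte genes were higher in part. Of 25 genes 20 were positive (median 0.87, lowest -0.78) and 5 passed the cutoffs of the study (0.483% of all genes were), 3 of them (Ly6a, Ly6c1 and Plac8) higher in both treated groups by themselves. At an unadjusted p under 0.05 against control, 8 were higher and 2 lower in the combination (2.83% and 1.61% of all genes). With doxorubicin alone 3 were higher and 0 lower (0.513% and 0.195%). Ly6a (Sca-1), a surface protein of progenitors and of interferon-exposed leukocytes, had 585, 519.5 and 327 CPM in the combination libraries, 136, 292 and 224 CPM in the doxorubicin libraries and 142, 71.5 and 15.7 CPM in the control libraries, a log2 fold change of 2.08 ± 0.61 (SE; unadjusted p = 0.00767). Ly6c1 had 519, 260.0 and 179 CPM in the combination libraries, 63.1, 105 and 193 CPM in the doxorubicin libraries and 71.1, 48.5 and 25.05 CPM in the control libraries, at 2.02 ± 0.51 (SE; unadjusted p = 0.00321). Control library 1 stood above doxorubicin library 1 for Ly6a and Ly6c1, so the groups overlapped. Ly6c2, the gene of the antigen that marks inflammatory monocytes, was at 1.98 (unadjusted p = 0.0154), Plac8 at 1.85 (unadjusted p = 0.00901) and Cd177, a neutrophil surface protein, at 1.73 (unadjusted p = 0.0150). Ly6c1 and Ly6c2 are near-identical, so the split of reads between them is uncertain. The threshold was no longer passed for Ly6c2 without control library 3 (1.71) and Cd177 without control library 3 (1.56). At an unadjusted p under 0.05 with no fold cutoff the count was also 5 (1.12% of all genes were higher). That count became 3 without control library 3, 10 without doxorubicin library 1 and 11 without combination library 3. It stayed at 5 with the length and GC trend taken out. The mean log2 CPM of the list was 7.43, 7.18 and 5.97 in the combination, 5.90, 6.73 and 7.04 in doxorubicin alone and 6.46, 5.82 and 5.71 in control, 4 of 6 exposed libraries lying above all controls. Other leukocyte lists leaned the same way by sign: 20 of 21 neutrophil genes were positive and 1 passed an unadjusted p under 0.05 (1.12% of all genes were higher), and 12 of 14 mast cell, basophil and eosinophil genes were positive and 0 passed. The neutrophil gene that passed was Mpo, at 0 counts in all controls and at most 16 in any exposed library. Mpo thus passed the filter on low counts through the exposed libraries alone, and its positive sign was fixed.

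T cell and cytotoxic genes were higher by sign, but single libraries ranged widely. All 27 T cell genes were positive (median 0.98) and 0 passed an unadjusted p under 0.05, and all 23 cytotoxic and NK genes were positive (median 1.29) and 1 passed, Klrg1 at 1.71 (unadjusted p = 0.0407), a receptor of effector CD8+ T and NK cells. The T cell median was 0.55 in the combination and 1.55 with doxorubicin alone, where 0 and 4 genes passed against control, the 4 being Cd3d, Cd3g, Cd8a and Trbc2. The cytotoxic median was 1.01 in the combination and 1.44 with doxorubicin alone, where 3 and 1 genes passed. Over all genes, 1.12% were higher in the pooled comparison, 2.83% against control in the combination and 0.513% with doxorubicin alone. Of 19 checkpoint receptor genes 18 were positive in the pooled comparison and 0 passed. Cd3d had 0.887, 3.67 and 1.08 CPM in the combination libraries, 0.436, 2.70 and 6.69 CPM in the doxorubicin libraries and 0.939, 0.276 and 0.813 CPM in the control libraries, at 1.87 (unadjusted p = 0.0594). Combination library 1 and doxorubicin library 1 lay below control library 1. Cd3g was at 2.12 (unadjusted p = 0.0687) and Pdcd1, the gene of PD-1, at 1.94 (unadjusted p = 0.0772). The call did not hold for Klrg1 without control libraries 2 or 3, doxorubicin library 3 or combination libraries 2 or 3 (1.13 to 1.64). The count of 1 cytotoxic gene became 0 without control libraries 2 or 3, doxorubicin library 3 or combination library 2, 2 without combination libraries 1 or 3, 3 without doxorubicin library 1 and 10 without control library 1, and that of 0 T cell genes became 1 without combination library 1, 2 without combination library 3 and 3 without doxorubicin library 1. The list means were -1.04, 1.47 and 0.37 log2 CPM in the combination, -0.46, 1.12 and 2.67 in doxorubicin alone and 0.80, -0.97 and 0.03 in control.

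**Figure D3:**
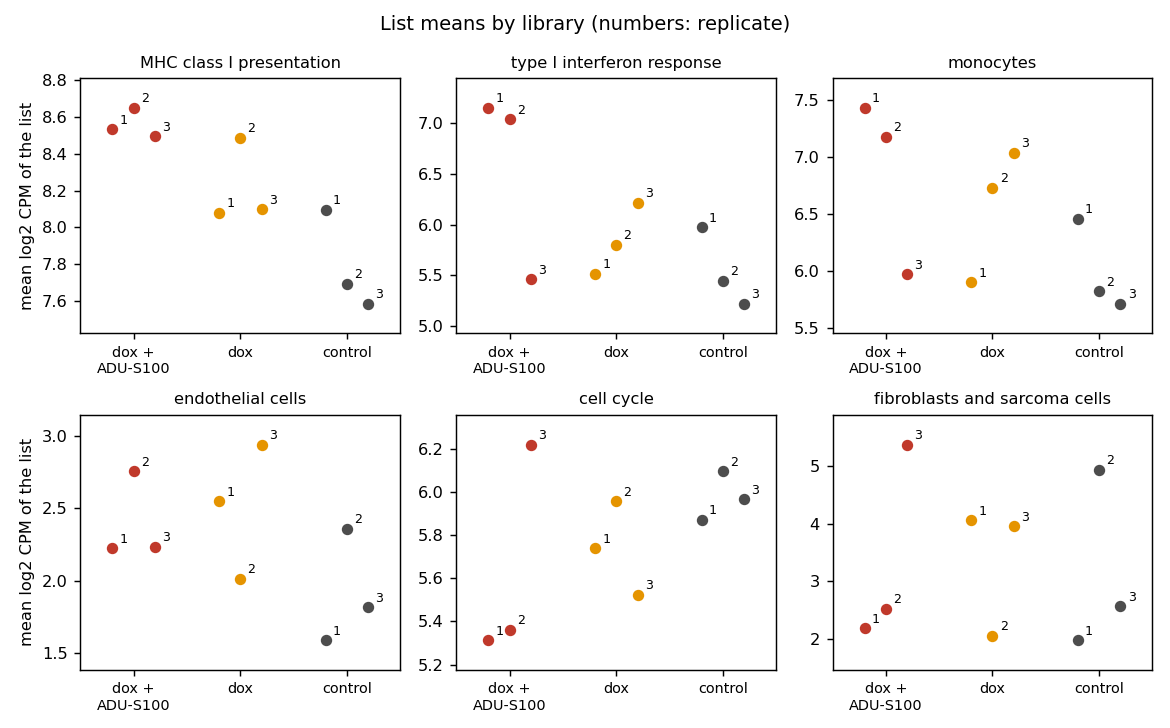
Mean log2 CPM (vertical axes do not start at 0) of 6 gene lists in each library, numbered by replicate, with the combination, doxorubicin and control from left to right. Class I means of 5 exposed libraries lie above the highest control, doxorubicin library 3 only just (8.097 against 8.096), while fibroblast means are mixed across the groups.

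**Figure D4:**
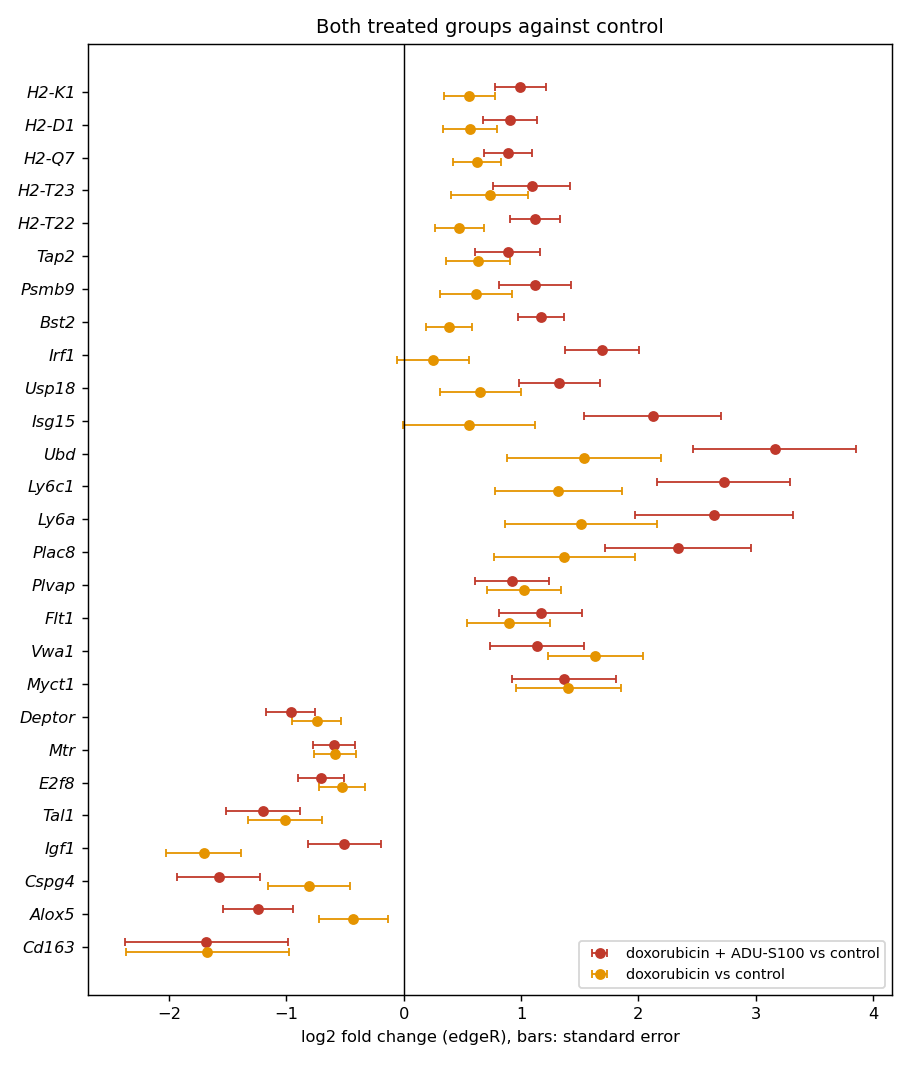
Log2 fold change against control (horizontal axis) of 27 genes in the combination and in doxorubicin alone, with bars for the standard error of edgeR's fit. Plvap, Myct1, Deptor and Mtr have nearly the same value in both groups, Irf1 and Isg15 lie further right in the combination and Igf1 lies further left in doxorubicin alone, and both comparisons share the 3 control libraries.

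Endothelial genes were mostly higher by sign in both treated groups. Of 19 genes 17 were positive (median 0.55, being 0.37 in the combination and 0.72 with doxorubicin alone), 6 passed an unadjusted p under 0.05, 2 (Plvap and Flt1) did so in both groups by themselves and 3 (Plvap, Pecam1 and Emcn) had the groups apart. Over all genes, 1.12% were higher in the pooled comparison, 0.238% in both groups by themselves and 0.44% with the groups apart. Plvap, which forms the diaphragms of capillary openings, had 17.03, 21.1 and 15.96 CPM in the combination libraries, 18.6, 13.7 and 25.7 CPM in the doxorubicin libraries and 6.40, 12.99 and 9.06 CPM in the control libraries. The exposed libraries all lay above all controls, and the log2 fold change was 0.98 ± 0.28 (SE; unadjusted p = 0.00735) (0.93 for the combination and 1.03 for doxorubicin alone; unadjusted p of their difference = 0.752). Flt1, a VEGF receptor, had 27.9, 39.96 and 40.5 CPM in the combination libraries, 23.6, 39.6 and 26.5 CPM in the doxorubicin libraries and 25.3, 11.9 and 11.03 CPM in the control libraries, at 1.03 ± 0.32 (SE; unadjusted p = 0.00988). Control library 1 overlapped the exposed libraries for Flt1. Egfl7 was at 0.96 (unadjusted p = 0.0248) and Pecam1, which platelets and leukocytes carry too, at 0.53 (unadjusted p = 0.0337).

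Outside the list, Myct1, a gene of endothelial and blood-forming cells, had 1.75, 2.94 and 1.64 CPM in the combination libraries, 2.27, 1.22 and 2.99 CPM in the doxorubicin libraries and 0.603, 0.996 and 0.850 CPM in the control libraries, at 1.38 ± 0.40 (SE; unadjusted p = 0.00744). Vwa1, a matrix protein gene of basement membranes, had 3.53, 7.66 and 4.58 CPM in the combination libraries, 7.97, 4.75 and 9.46 CPM in the doxorubicin libraries and 1.88, 3.09 and 2.18 CPM in the control libraries, at 1.38 ± 0.37 (SE; unadjusted p = 0.00418). Both had no overlap and were among the 11 genes that met every condition, as was Bmp4, a secreted growth factor gene named after its values were seen, with 0.229 to 0.562 CPM (median 0.275) in the 6 doxorubicin-exposed libraries and 0.0555 to 0.107 CPM in the 3 controls, the controls holding only 3 to 7 counts. The endothelial list mean was 2.23, 2.76 and 2.24 log2 CPM in the combination, 2.55, 2.01 and 2.94 in doxorubicin alone and 1.59, 2.36 and 1.82 in control, 3 of 6 exposed libraries lying above all controls. Plvap, Flt1, Myct1 and Vwa1 passed whichever library was left out, and the count of 6 became 2 without control libraries 1 or 3 or doxorubicin library 3 and 3 without combination library 2, and 7 with the length and GC trend taken out. The call was lost for Egfl7 without control libraries 1 or 3, doxorubicin library 3 or combination library 1 (0.68 to 0.97) and Pecam1 without control libraries 1, 2 or 3, doxorubicin library 3 or combination library 2 (0.41 to 0.57). The part of carried-over endothelial cells in these values was not tested.

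Deptor was lower in every exposed library. It encodes an inhibitor bound to the kinase mTOR. Deptor (chromosome 15, 55112317 to 55259273) had 9.61, 13.3 and 9.32 CPM in the combination libraries, 12.7, 12.5 and 12.3 CPM in the doxorubicin libraries and 23.9, 17.98 and 20.9 CPM in the control libraries. Every exposed library lay below every control, and the log2 fold change was -0.85 ± 0.18 (SE; unadjusted p = 0.000910) (-0.96 for the combination and -0.74 for doxorubicin alone; unadjusted p of their difference = 0.318), with a DESeq2 adjusted p of 0.0366. Tal1, a transcription factor of blood-forming, erythroid and endothelial cells, had 2.66, 1.95 and 2.72 CPM in the combination libraries, 2.98, 3.05 and 2.33 CPM in the doxorubicin libraries and 4.57, 4.89 and 7.41 CPM in the control libraries. It too had no overlap, at -1.11 ± 0.26 (SE; unadjusted p = 0.00208), and it was 1 of the 2 lower genes that met every condition. The other, Epb41l3, a membrane skeleton gene named after its values were seen, had 0.309 to 0.834 CPM (median 0.616) in the 6 doxorubicin-exposed libraries and 0.957 to 1.78 CPM in the 3 controls and was at -1.17 (unadjusted p = 0.0153). The unadjusted p no longer passed for Epb41l3 without control library 2 (-0.93).

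**Figure D5:**
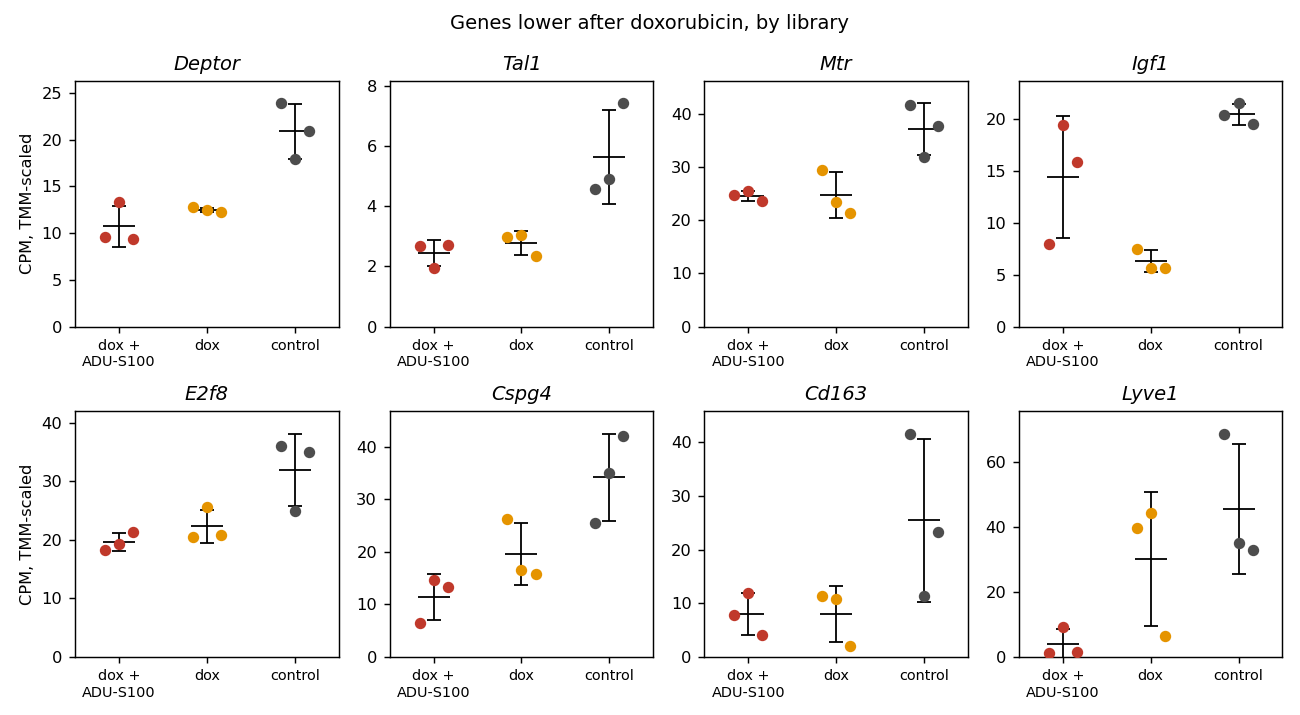
TMM-scaled CPM (linear axis from 0) of 8 genes lower in doxorubicin-exposed libraries, with the combination, doxorubicin and control from left to right, points for libraries and bars for mean ± SD (n = 3 each). Deptor lies between 9.32 and 13.3 CPM in the exposed libraries and between 17.98 and 23.9 CPM in the controls.

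Igf1, the growth factor that tissue macrophages secrete, had 7.94, 19.3 and 15.8 CPM in the combination libraries, 7.49, 5.65 and 5.65 CPM in the doxorubicin libraries and 20.3, 21.5 and 19.5 CPM in the control libraries. All exposed libraries lay below all controls at -1.11 ± 0.26 (SE; unadjusted p = 0.00209), with the lower values in doxorubicin alone (-0.51 for the combination and -1.70 for doxorubicin alone; unadjusted p of their difference = 0.00410). Cspg4, the NG2 proteoglycan gene of pericytes and sarcoma cells, was at -1.19 (unadjusted p = 0.00256), and Alox5, the enzyme that starts leukotriene synthesis, at -0.83 (unadjusted p = 0.00785). Mtr, the gene of methionine synthase, was at -0.59 (unadjusted p = 0.00381) with no overlap, and E2f8, a repressor among the E2F cell cycle factors, at -0.61 (unadjusted p = 0.00476). Tmod1, which caps actin filaments, was at -1.63 (unadjusted p = 0.00285), Tom1l1, an adaptor of endosomal sorting, at -1.06 (unadjusted p = 0.00391), Rgs7bp at -2.18 (unadjusted p = 0.00678) with no overlap, and Cnrip1 at -1.02 (unadjusted p = 0.0112). The predicted gene Gm36298 had 1.02, 1.59 and 1.06 CPM in the combination libraries, 1.98, 1.44 and 1.70 CPM in the doxorubicin libraries and 2.57, 2.57 and 3.20 CPM in the control libraries, without overlap and at -0.94 (unadjusted p = 0.00768). A p under 0.05 was lost for Cnrip1 without control library 3 (-0.83). The other genes named in this paragraph passed whichever library was left out. With the length and GC trend taken out, Deptor was at -0.68 (unadjusted p = 0.0215), Tal1 at -1.15 and Mtr at -0.45 (unadjusted p = 0.0779).

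Macrophage genes differed among themselves. Of 27 genes 21 were negative (median -0.17), 3 were lower and 1 higher at the cutoffs of the study (0.275% and 0.483% of all genes were). The median was -0.36 in the combination and 0.06 with doxorubicin alone. At an unadjusted p under 0.05 against control, 3 were lower and 1 higher in the combination (1.61% and 2.83% of all genes). With doxorubicin alone 1 was lower and 0 higher (0.195% and 0.513%). Cd163, the scavenger receptor for haemoglobin with haptoglobin, had 7.74, 11.96 and 4.12 CPM in the combination libraries, 11.3, 10.7 and 1.98 CPM in the doxorubicin libraries and 41.6, 11.4 and 23.4 CPM in the control libraries, a log2 fold change of -1.68 ± 0.56 (SE; unadjusted p = 0.0154). Lyve1, a hyaluronan receptor of perivascular macrophages and lymphatic vessels, had 0.998, 9.13 and 1.52 CPM in the combination libraries, 39.5, 44.3 and 6.44 CPM in the doxorubicin libraries and 68.7, 34.97 and 32.9 CPM in the control libraries, at -2.08 ± 0.73 (SE; unadjusted p = 0.0185). For Lyve1 the log2 fold change was -3.56 in the combination and -0.60 with doxorubicin alone (unadjusted p of the difference = 0.0116). The groups overlapped for both Cd163 and Lyve1, and control library 1 held the highest value of each. The threshold was no longer passed for Cd163 without control library 1 (-1.12) and Lyve1 without control library 1 (-1.65). Vsig4, a complement receptor, was at -1.49 (unadjusted p = 0.0392), being -2.01 in the combination and -0.97 with doxorubicin alone. Cd5l, a protein that macrophages secrete, was higher at 2.24 (unadjusted p = 0.0313). The call did not hold for Vsig4 without control libraries 1 or 3, doxorubicin libraries 2 or 3 or combination libraries 1 or 3 (-1.49 to -1.27) and Cd5l without control libraries 2 or 3, doxorubicin library 2 or combination library 2 (1.78 to 1.95). At an unadjusted p under 0.05 with no fold cutoff, 3 were also lower and 1 higher (0.861% and 1.12% of all genes were). Those 3 lower genes became 0 without control library 1 and 6 without combination library 2. They stayed at 3 with the length and GC trend taken out, when the higher one no longer passed.

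Genes tied to the known actions of doxorubicin were measured 7 days after treatment. Of 19 drug targets, efflux pumps and reductases 9 were positive (median -0.03) and 0 passed. The topoisomerase genes Top2a, Top2b and Top1 were at -0.32 (unadjusted p = 0.359), -0.29 (unadjusted p = 0.0907) and -0.36 (unadjusted p = 0.116). Top2b had 51.9, 75.04 and 75.1 CPM in the combination libraries, 65.6, 65.2 and 67.8 CPM in the doxorubicin libraries and 86.8, 81.4 and 76.2 CPM in the control libraries, all exposed libraries lying below all controls, but with the length and GC trend taken out it was at -0.07. Of 30 p53 target and DNA damage genes 20 were positive (median 0.11) and 1 passed (1.12% of all genes were higher), Gadd45a at 0.77 (unadjusted p = 0.0449). Against control, 4 of the 30 were higher in the combination (Btg2, Cdkn1a, Gadd45a and Fas, against 2.83% of all genes) and 0 with doxorubicin alone (0.513%). The pooled count of 1 became 0 without control library 3, doxorubicin libraries 1 or 3 or combination library 2, 2 without control library 2 or combination library 1 and 5 without combination library 3, and 0 with the length and GC trend taken out. The call was lost for Gadd45a without control libraries 1 or 3, doxorubicin libraries 1 or 3 or combination library 2 (0.55 to 0.82). Cdkn1a, the p21 cell cycle inhibitor, had 850.5, 822 and 316 CPM in the combination libraries, 363, 456 and 450.3 CPM in the doxorubicin libraries and 449.8, 359 and 314 CPM in the control libraries, at 0.50 (unadjusted p = 0.141). Fas was at 0.68 (unadjusted p = 0.0778) and Sesn1 at -0.41 (unadjusted p = 0.0937).

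Cell cycle genes were nearly uniform in sign. Of 30 genes 29 were negative with a median of -0.23, and 1 passed an unadjusted p under 0.05 (0.861% of all genes were lower), the proliferation marker Mki67 at -0.67 (unadjusted p = 0.0370). The unadjusted p no longer passed for Mki67 without control libraries 1, 2 or 3, doxorubicin libraries 2 or 3 or combination libraries 1 or 2 (-0.73 to -0.55). Without combination library 3, 18 of 30 cell cycle genes were lower at an unadjusted p under 0.05, and the share of all genes lower in that fit is not given here. The list mean was 5.31, 5.36 and 6.22 log2 CPM in the combination, 5.74, 5.96 and 5.52 in doxorubicin alone and 5.87, 6.10 and 5.97 in control, 4 of 6 exposed libraries lying below all controls and combination library 3 above them. Hypoxia and glycolysis genes went the other way by sign, 22 of 24 being positive (median 0.34) and 3 passing (1.12% of all genes were higher). Slc2a1, the glucose transporter GLUT1, had 462, 559.7 and 448 CPM in the combination libraries, 416, 504 and 523 CPM in the doxorubicin libraries and 390.4, 339 and 259 CPM in the control libraries, with no overlap and at 0.56 ± 0.19 (SE; unadjusted p = 0.0164), higher in both treated groups by themselves. Ndrg1 was at 0.45 (unadjusted p = 0.0371) and Egln3, an oxygen-sensing prolyl hydroxylase, at 0.76 (unadjusted p = 0.0448). A p under 0.05 was lost for Slc2a1 without control library 3 (0.42), Ndrg1 without control libraries 1 or 3, doxorubicin library 3 or combination library 3 (0.33 to 0.48) and Egln3 without control libraries 1 or 3, doxorubicin libraries 2 or 3 or combination libraries 2 or 3 (0.52 to 0.79). The count of 3 became 1 without control library 3 or doxorubicin library 3 and 8 without doxorubicin library 1, and stayed at 3 with the length and GC trend taken out.

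Markers of skin and fat, cells that the sort should remove, were higher by sign. Of 12 keratinocyte and adipocyte genes measured 12 were positive and 3 passed an unadjusted p under 0.05 (1.12% of all genes were higher), Krt14, Krt1 and Car3. The list median was 2.05 in the combination and 0.30 with doxorubicin alone. Against control, 6 of the 12 were higher at an unadjusted p under 0.05 in the combination (2.83% of all genes) and 1 with doxorubicin alone (0.513%). The count of 3 became 0 without control libraries 1 or 3, 1 without doxorubicin library 1 or combination library 2, 5 without doxorubicin library 3 or combination library 1 and 7 without combination library 3. Krt14, a keratin of basal keratinocytes, was at 0 counts in all controls and at 0.480, 2.35 and 0 CPM in the combination libraries, 0.691, 0.291 and 0 CPM in the doxorubicin libraries. Krt14 thus passed the filter on low counts through the exposed libraries alone, and its positive sign was fixed. Its call held in 5 of the 9 fits with 1 library left out. Krt1, a keratin of the upper epidermis, had 0.222, 17.8 and 0 CPM in the combination libraries, 0.855, 0.349 and 0 CPM in the doxorubicin libraries and 0, 0.0306 and 0 CPM in the control libraries. With 0, 2 and 0 counts in the controls, Krt1 too passed the filter on low counts through the exposed libraries alone. Car3, a carbonic anhydrase gene of fat and muscle, had 0.794, 1.85 and 1.04 CPM in the combination libraries, 0.145, 0.233 and 0.149 CPM in the doxorubicin libraries and 0.106, 0.260 and 0.185 CPM in the control libraries. Its log2 fold change was 2.72 in the combination and -0.07 with doxorubicin alone (unadjusted p of the difference = 0.000739). The call of Krt1, highest in combination library 2, was lost without control libraries 1, 2 or 3, doxorubicin library 1 or combination library 2. The threshold was no longer passed for Car3 without control libraries 1 or 3 or combination library 2 (1.05, 1.32 and 1.11).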

How the data were processed

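RNA-seq was analysed for 9 libraries of CD45+ cells sorted from mouse WEHI-164 tumors: 3 doxorubicin + ADU-S100, 3 doxorubicin and 3 control. The authors deposited 1 table of whole-number read counts per gene for 45777 genes. Per the submitters' processing notes, the tools were Trimmomatic 0.38, HISAT2 2.1.0, SAMtools 1.9 and StringTie 2.1.3b on mm10, and library preparation was strand-specific, but the strand setting of the counting is not given in the sources used here. Columns were matched to samples by the column names in the labels.

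Counts were scaled by TMM and tested in R 4.3.3 with edgeR 4.0.16 (quasi-likelihood F test, two-sided, a mean per group, filterByExpr leaving 16373 genes, Benjamini-Hochberg adjustment). The contrast was the mean of both treated groups minus control. CPM values in the text are TMM-scaled. Fold changes of genes at 0 in a group depend on edgeR's prior count and are not given. Totals were 50110494 to 69456603 counts per library. DESeq2 1.42.0 (the tool the study names), limma-voom 3.58.1, no filter, a filter of CPM 1 in 3 libraries, one mean for the 6 exposed libraries, a fibroblast covariate, a replicate block, other gene sets left out and each library left out were tried. A smooth on transcript length and GC was chosen after seeing the data. The scripts were tested on simulated data.

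The members and the gene lists were chosen with earlier results of these data known, and lists carry no test. Genes were named by rule: the 12 smallest p in each direction at a mean CPM of 1 or more, up to 12 that passed every shared condition, the 4 smallest p of each list, and Ptprc, Tmem173, Top2a, Top2b, Cdkn1a, Ly6a, Ly6c1 and Ly6c2. Emcn, Btg2, Bmp4, Epb41l3, other class I genes and the shared genes under 1 CPM were named after their values were seen. Promoter sequences and motifs came from RefSeq on GRCm38.p6, for 27025 genes.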

Additional observations from a re-analysis of the deposited data

Results flagged for a closer look

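Of the 92 genes followed under every alternative, 18 differed between the combination and doxorubicin alone at an unadjusted p under 0.05 in the edgeR fit, 14 higher and 4 lower in the combination, and none at an adjusted p under 0.05 (adjusted p = 0.999, edgeR's quasi-likelihood test with Benjamini-Hochberg adjustment). Outliers within groups were not sought, since each group holds 3 libraries.

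Among interferon response genes, the log2 difference of the combination minus doxorubicin alone was 1.44 for Irf1, 0.78 for Bst2, 1.19 for Irgm1, 1.09 for Xaf1, 1.57 for Isg15, 1.13 for Socs1 and 1.62 for Ubd. For Irf1 the log2 fold change against control was 1.69 in the combination and 0.25 with doxorubicin alone. Among class I genes the difference was 0.63 for H2-K2, 0.64 for H2-T10, 0.65 for H2-T22 and 0.76 for Psme2. The difference was 2.79 for Car3, a gene of fat and muscle at 2.72 against control in the combination and -0.07 with doxorubicin alone. It was 1.41 for Ly6c1, which was higher than control in both groups, and 1.20 for Igf1, whose values against control were -0.51 in the combination and -1.70 with doxorubicin alone. The 4 genes lower in the combination were Tmod1 at -1.999, Lyve1 at -2.96, Tom1l1 at -1.04 and Alox5 at -0.81. Lyve1 was at -3.56 against control in the combination and at -0.60 with doxorubicin alone. The combination and doxorubicin alone share no library in this comparison.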

How the results depend on the processing

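No adjusted call was made by edgeR in the comparison as reported, and DESeq2 made 3. At the study thresholds, DESeq2 gave 121 genes higher, limma-voom 183 higher and 140 lower, no filter on low counts 162 higher and 192 lower, a filter of CPM 1 in 3 libraries 40 higher and 22 lower, a fibroblast covariate 163 higher, leaving out the 4 libraries richest in fibroblast transcripts 211 higher and 198 lower, and one mean for the 6 exposed libraries 26 lower. The 11 and 2 genes that met every condition became 17 and 13 without a filter and 4 and 1 with the CPM filter. They became 45 and 32 without the 4 libraries, among which were 1 of the 11 and 0 of the 2. The 2 became 10 with limma-voom, and with the length and GC smooth the 2 became 4 and the 15 class I genes 8. With 1 library left out, adjusted calls ran from 0 to 1 (Gm8810, without the doxorubicin library in which it was at 0), genes higher at the study thresholds from 54 to 215 and lower from 35 to 107, genes meeting every condition from 3 to 90 higher and from 1 to 15 lower, and class I genes from 6 to 17. The cause was not tested, except that fewer or more genes entered under the filters.

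Replicate numbers did not pair the libraries (9 same-numbered pairs, correlations of -0.596 to 0.383, 3 above 0.1, and 1 of 9 libraries nearest to its own number). With the replicate block, 64 genes were higher and 35 lower at the study thresholds, 9 and 3 met every condition, and 12 class I genes passed.

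Of the 92 genes, 74 had an unadjusted p under 0.05 as reported, and 26 of these, 18 higher and 8 lower, had one in all 20 alternatives. They were picked for small p-values, which makes this a description. Genes that reversed sign lay near 0: Tmem173 was at -0.0430 with the replicate block, -0.0350 with limma-voom and -0.0629 with the smooth, Erap1 at -0.0085 with limma-voom, Calr at -0.0205 with limma-voom and -0.0174 with the smooth, Pdia3 at -0.0932 with limma-voom, -0.0044 without mitochondrial and haemoglobin genes and -0.0411 with the smooth, and Ptprc at 0.0488 with limma-voom and 0.0746 with the smooth. With 1 library left out they ranged from -0.20 to 0.325 for Tmem173, from -0.0937 to 0.33 for Erap1, from -0.0480 to 0.0675 for Pdia3 and from -0.335 to 0.19 for Ptprc.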
